A study of Homo sapiens with 6 samples.

Results

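Genes of the insulin-like growth factor (IGF) axis were examined in Hep3B cells, a human hepatocellular carcinoma line, after transfection with siRNA against SMARCA4 (si-SMARCA4, 3 libraries) or with control siRNA (si-Cont, 3 libraries). They are the 10 rows of 57773 in the gene table whose symbols are IGFBP1, IGFBP2, IGFBP3, IGFBP4, IGFBP6, IGF2, IGF1R, INSR, IRS1 and IRS2, and each symbol had a single row. SMARCA4, also known as BRG1, is an ATPase that drives SWI/SNF chromatin remodelling complexes. Both groups were grown in medium with fetal bovine serum, and total RNA was sequenced. The sources used here do not give the siRNA sequences, their dose, the time after transfection or whether the replicates were separate cultures. The values are those of 1 cell line in bulk, so fewer cells with a transcript and less transcript per cell cannot be told apart. The 10 genes were chosen on their FPKM values in si-SMARCA4 against si-Cont libraries. Their differences between the groups are therefore a description without a test.

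IGF1 and IGF2 are secreted growth factors that signal through the receptor tyrosine kinase encoded by IGF1R, and IGF2 also signals through a form of the insulin receptor, encoded by INSR. The activated receptors phosphorylate the docking proteins IRS1 and IRS2, which recruit phosphatidylinositol 3-kinase and start AKT signalling. IGF binding proteins hold the factors outside the cell, prolong their stay in the circulation and limit their access to the receptors. Hepatocytes are a main source of circulating IGF1 and of IGFBP1, whose gene is repressed by insulin through AKT and FOXO factors and is also induced by stress and low oxygen. Fetal liver and many liver cancers make IGF2.

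SMARCA4 itself (ENSG00000127616) had 3.80, 3.78 and 4.01 FPKM in si-SMARCA4 libraries, against 15.7, 19.5 and 16.6 FPKM in si-Cont libraries. FPKM scales the reads of a gene by its length and by a denominator for the library. The difference on the log2(FPKM + 1) scale was -1.91 (SE 0.07, limma adjusted p = 1.63e-08, lower in 3 of 3 libraries), and a two-sided exact permutation test gave p = 0.1, the smallest that 3 against 3 libraries allow. Genes took 19492957 to 21731677 reads per si-SMARCA4 library and 19084308 to 22719014 reads per si-Cont library, which was 62.8% to 64.3% of the FPKM denominator in si-SMARCA4 and 65.5% to 69.5% in si-Cont. On the second principal component, which held 8.58% of the variance, si-Cont replicate 2 lay at -10.96 and the other 5 libraries between -1.83 and 5.70. The members' ratios or differences and the list counts are therefore also given without that library. All 6 hepatocyte-type markers examined (ALB, AFP, APOA1, APOB, TTR and HNF4A) had a mean of at least 1 FPKM, with summed levels of 1887 to 1995 FPKM in si-SMARCA4 and 2869.5 to 3198 FPKM in si-Cont, although TTR was the higher in si-SMARCA4 (18.8 FPKM, against 12.2 FPKM in si-Cont). None of 4 immune markers reached 1 FPKM, and their sums were 0.195 to 0.262 FPKM in si-SMARCA4 and 0.172 to 0.218 FPKM in si-Cont. None of 4 endothelial markers did either (0.690 to 0.798 FPKM in si-SMARCA4 and 0.366 to 0.513 FPKM in si-Cont), with VWF and CDH5 at 0 in every library. Of 5 fibroblast and stellate cell markers, 1, LUM, was above 1 FPKM, and the sums were 11.6 to 12.0 FPKM in si-SMARCA4 and 7.59 to 8.56 FPKM in si-Cont. LUM made the difference (11.4 FPKM in si-SMARCA4 and 7.25 FPKM in si-Cont). COL1A1 (0.206 and 0.498 FPKM), DCN (0.00514 and 0.0133 FPKM) and PDGFRB (0.203 and 0.346 FPKM) were lower in si-SMARCA4 than in si-Cont. COL1A2 was higher (0.0274 FPKM in si-SMARCA4 and 0.0229 FPKM in si-Cont). All of these but LUM were under 1 FPKM, so no direction is read from them. The part of the lower hepatocyte-type sum and of the higher LUM level in the results below was not tested.

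In outline, IGFBP1 was about 6 times as abundant in si-SMARCA4 libraries as in si-Cont libraries, and IGFBP3 and IRS2 were about 1.5 times as abundant. INSR was slightly higher. IGF2, IGF1R and IRS1 overlapped between the groups, and for each of them the overlap came from si-Cont replicate 2. The 3 binding proteins IGFBP2, IGFBP4 and IGFBP6 were under 1 FPKM in every library, the first pair lower and IGFBP6 higher in si-SMARCA4. With so few reads, nothing is read from these directions. These 3 had a mean under 1 FPKM and stayed outside the fit across genes, which kept 11123 genes and 7 of the 10 members.

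IGFBP1 (ENSG00000146678, chromosome 7) encodes a binding protein made in liver and decidua whose level in blood changes within hours of a meal. It had 15.9, 20.7 and 17.8 FPKM in si-SMARCA4 replicates 1 to 3, against 3.34, 2.97 and 2.83 FPKM in si-Cont replicates 1 to 3. The lowest si-SMARCA4 library stood well above the highest si-Cont library. Means were 18.1 ± 2.44 FPKM in si-SMARCA4 and 3.05 ± 0.265 FPKM in si-Cont (SD, n = 3 each), a ratio of 5.96 and a log2(FPKM + 1) difference of 2.24 (SE 0.08). The values rested on 888 to 1115 reads per si-SMARCA4 library and 143 to 182 reads per si-Cont library, and only 2 of the 11123 genes in the fit had a larger difference in the higher direction. The ratio was 5.88 without si-Cont replicate 2.

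IGFBP3 (ENSG00000146674) encodes the main carrier of IGFs in blood and is the gene next to IGFBP1, 18.6 kb away and on the opposite strand (GENCODE v29 on GRCh38). It had 17.2, 17 and 17.9 FPKM in si-SMARCA4 replicates 1 to 3 and 12.1, 10.4 and 11.4 FPKM in si-Cont replicates 1 to 3, from 1356 to 2592 reads. The groups did not overlap. Means were 17.4 ± 0.495 FPKM in si-SMARCA4 and 11.3 ± 0.821 FPKM in si-Cont (SD, n = 3 each), a ratio of 1.54 and a log2 difference of 0.58 (SE 0.06). The log2 difference was 0.53 without si-Cont replicate 2, and 283 genes in the fit had a larger one in the higher direction.

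**Figure D1:**
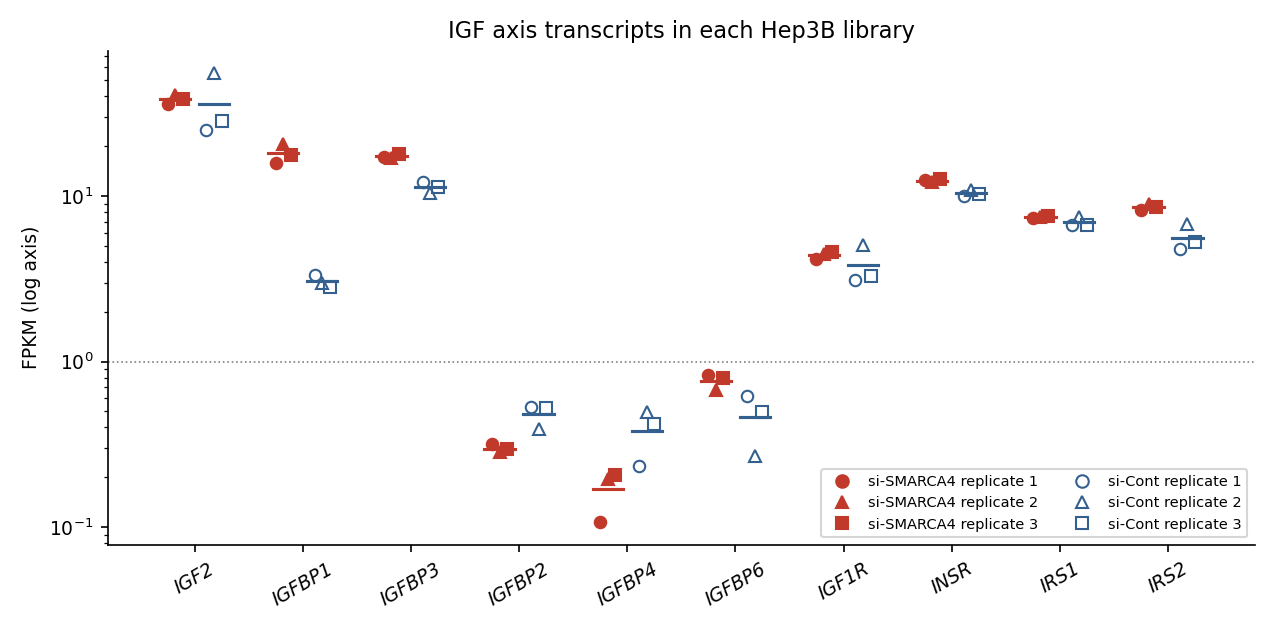
FPKM of the 10 genes in each library on a log axis, si-SMARCA4 filled and si-Cont open, with lines at the group means and a dotted line at 1 FPKM. IGFBP1 separates the groups most widely (15.9 to 20.7 FPKM in si-SMARCA4, 2.83 to 3.34 FPKM in si-Cont). The open triangle of si-Cont replicate 2 stands above both other si-Cont libraries for IGF2, IGF1R, INSR, IRS1, IRS2 and IGFBP4.

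The other 3 binding proteins were scarce. IGFBP2, which in the adult is made by the liver and is abundant in fetal serum, had 0.316, 0.284 and 0.295 FPKM in si-SMARCA4 (43 to 51 reads), against 0.528, 0.389 and 0.527 FPKM in si-Cont (54 to 83 reads), a ratio of 0.620, or 0.566 without si-Cont replicate 2. IGFBP4, a binding protein known to restrain IGF action until it is cut by pappalysin, had 0.107, 0.195 and 0.207 FPKM in si-SMARCA4 (8 to 14 reads) and 0.233, 0.497 and 0.417 FPKM in si-Cont (17 to 32 reads), a ratio of 0.444, or 0.522 without si-Cont replicate 2. The si-SMARCA4 libraries lay below the si-Cont libraries for both genes. IGFBP6, which prefers IGF2 over IGF1, had 0.832, 0.673 and 0.793 FPKM in si-SMARCA4 (28 to 36 reads) and 0.617, 0.268 and 0.497 FPKM in si-Cont (10 to 26 reads), a ratio of 1.66. Here si-SMARCA4 lay above, and the ratio was 1.38 without si-Cont replicate 2. At 8 to 83 reads per library the counting error is large. Among 5328 genes with a mean of 0.1 to 1 FPKM, 18.3% were higher and 16.4% lower in si-SMARCA4 with groups that did not overlap, so non-overlap is common in this range and nothing is read from these 3 genes.

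Added up, the transcripts of IGFBP1 to IGFBP6 came to 34.3, 38.9 and 37.0 FPKM in si-SMARCA4 libraries, against 16.8, 14.5 and 15.6 FPKM in si-Cont libraries. Their means were 36.7 ± 2.32 FPKM in si-SMARCA4 and 15.6 ± 1.12 FPKM in si-Cont (SD, n = 3 each), a ratio of 2.35, and the si-Cont mean was 16.2 FPKM without replicate 2. IGFBP1 made up 49.2% ± 3.63 of this sum in si-SMARCA4 and 19.5% ± 1.22 in si-Cont, while IGFBP3 made up 47.4% ± 3.26 in si-SMARCA4 and 72.1% ± 0.541 in si-Cont (SD, n = 3 each). The ratio of IGFBP1 to IGFBP3 was 0.926, 1.22 and 0.992 in si-SMARCA4 libraries and 0.277, 0.285 and 0.249 in si-Cont libraries. IGFBP3 led the sum in every si-Cont library, and the 2 genes had levels that overlapped in si-SMARCA4. IGFBP5, the gene beside IGFBP2, was listed at 0 in all 6 libraries and adds nothing to the sum.

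**Figure D2:**
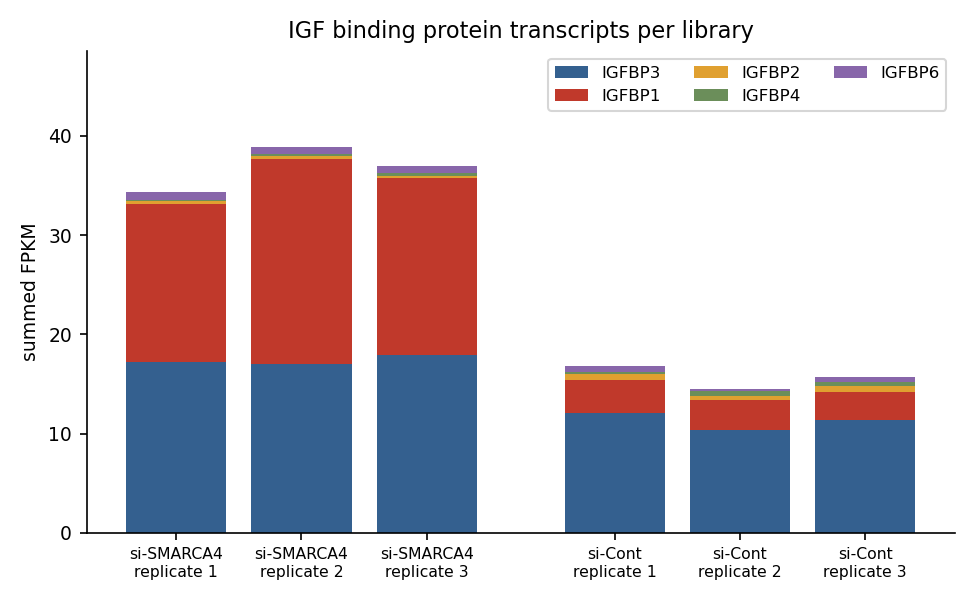
Stacked FPKM of the IGF binding protein genes in each library, si-SMARCA4 on the left and si-Cont on the right, with IGFBP5 at 0. The sums run from 34.3 to 38.9 FPKM in si-SMARCA4 and from 14.5 to 16.8 FPKM in si-Cont, and the IGFBP1 segment accounts for most of the gap.

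IGF2 (ENSG00000167244), the fetal growth factor, was the most abundant of the 10 transcripts in both groups. It had 35.9, 40.8 and 38.4 FPKM in si-SMARCA4 replicates 1 to 3 and 25.1, 55.2 and 28.5 FPKM in si-Cont replicates 1 to 3. The si-Cont group thus spanned the whole si-SMARCA4 group, with replicate 2 at 2.06 times the mean of replicates 1 and 3. Over all genes in the fit that ratio had a median of 0.935, with 5% of genes below 0.826 and 5% above 1.19. Group means were 38.3 ± 2.47 FPKM in si-SMARCA4 and 36.2 ± 16.5 FPKM in si-Cont (SD, n = 3 each), and the log2 difference was 0.16 (SE 0.22). Without si-Cont replicate 2 the si-Cont mean was 26.8 FPKM and the log2 difference 0.50. It was -0.05 without si-Cont replicate 1. The value depends on which si-Cont library is kept, from 5777 to 11219 reads per library. The table also lists INS-IGF2 and INS, at 0 in every library, and the antisense gene IGF2-AS (0.512 ± 0.0719 FPKM in si-SMARCA4 and 0.634 ± 0.148 FPKM in si-Cont). Whether counting used strand is not given in the sources used here, so reads of IGF2 and IGF2-AS may be shared. IGF2-AS had 40 to 71 reads per library. Per library, IGF2 was 1.05, 1.05 and 1.04 times the summed binding proteins in si-SMARCA4 and 1.5, 3.79 and 1.82 times in si-Cont. All 3 si-SMARCA4 ratios lay below all 3 si-Cont ratios, whose mean was 1.66 without replicate 2.

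Of the receptors, IGF1R (ENSG00000140443) had 4.17, 4.44 and 4.61 FPKM in si-SMARCA4 and 3.12, 5.06 and 3.30 FPKM in si-Cont. Its si-Cont replicate 2 again lay above every si-SMARCA4 library, and the log2 difference was 0.18 (SE 0.12) with all libraries and 0.36 without that library. INSR (ENSG00000171105) had 12.5, 12.1 and 12.6 FPKM in si-SMARCA4 and 10.0, 10.9 and 10.3 FPKM in si-Cont. The INSR groups did not overlap, at a ratio of 1.19 and a log2 difference of 0.23 (SE 0.05), or 0.26 without si-Cont replicate 2. INSR was the more abundant receptor transcript in all 6 libraries. IGF1R made up 26.2% ± 1.03 of the sum of both in si-SMARCA4 and 26.6% ± 4.51 in si-Cont (SD, n = 3 each). This difference was smaller than the spread between si-Cont libraries, which came from replicate 2 (31.8%). The si-Cont mean was 24.0% without that library, and the other si-Cont libraries (23.7% and 24.3%) lay below all 3 si-SMARCA4 libraries (25.0%, 26.9% and 26.7%).

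Of the docking proteins, IRS2 (ENSG00000185950), which in liver carries much of the insulin signal and is itself a FOXO target, had 8.19, 9.0 and 8.59 FPKM in si-SMARCA4, against 4.78, 6.78 and 5.29 FPKM in si-Cont. The groups did not overlap. Means were 8.59 ± 0.405 FPKM in si-SMARCA4 and 5.61 ± 1.04 FPKM in si-Cont (SD, n = 3 each), a ratio of 1.53 and a log2 difference of 0.55 (SE 0.09), or 0.67 without si-Cont replicate 2. IRS1 (ENSG00000169047) had 7.32, 7.5 and 7.57 FPKM in si-SMARCA4 and 6.73, 7.49 and 6.72 FPKM in si-Cont, a ratio of 1.07 and a log2 difference of 0.09 (SE 0.05), or 0.13 without si-Cont replicate 2. IRS2 was 1.12, 1.20 and 1.13 times IRS1 in si-SMARCA4 libraries and 0.710, 0.905 and 0.786 times IRS1 in si-Cont libraries. IRS2 was thus the higher of the docking protein transcripts in each si-SMARCA4 library and IRS1 in each si-Cont library, where the mean ratio was 0.748 without replicate 2.

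**Figure D3:**
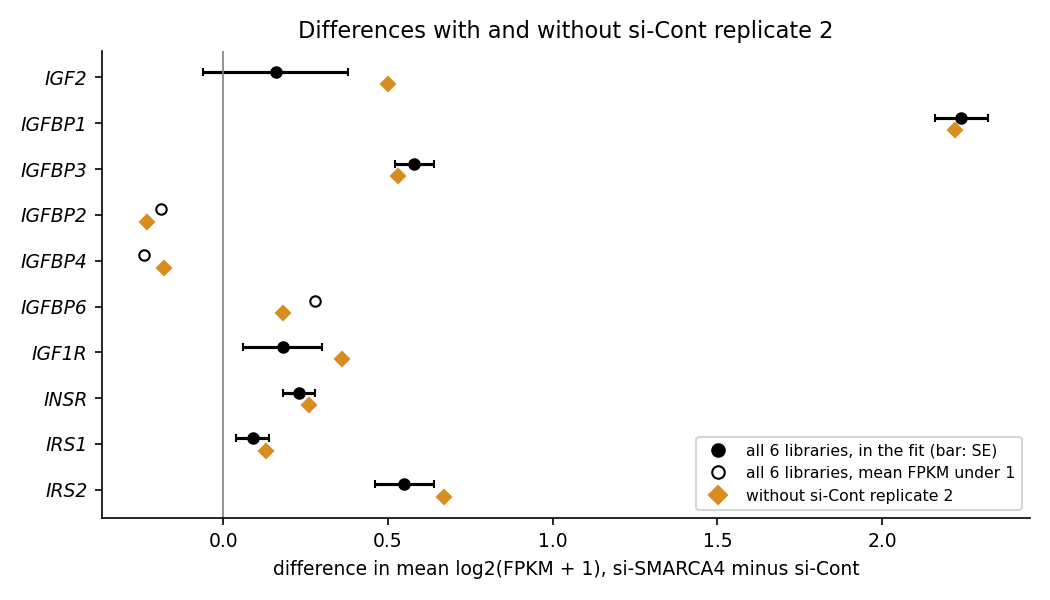
Difference in mean log2(FPKM + 1), si-SMARCA4 minus si-Cont, for all 6 libraries (circles, with the SE of the fit for the 7 genes in it) and without si-Cont replicate 2 (diamonds). IGF2 moves most between these settings (0.16 and 0.50), followed by IGF1R (0.18 and 0.36), whereas IGFBP1 stays near 2.2 (2.24 and 2.22).

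Read together, 4 of the 7 members in the fit (IGFBP1, IGFBP3, INSR and IRS2) were higher past the limma threshold and none was lower. Over all genes in the fit, 56.0% were past it, 22.4% higher and 33.6% lower. Without si-Cont replicate 2 all 7 were higher past the threshold, against 23.6% of all genes. The same genes were those whose groups did not overlap: 4 of 7 higher with all libraries, where 25.7% of all genes were, and 7 of 7 without si-Cont replicate 2, where 28.6% were. Since the members were chosen with this contrast known, nothing is read from these counts. The share of higher genes among all called genes depended on the scaling, with 2494 higher and 3733 lower genes in FPKM but 3425 higher and 3137 lower after upper-quartile scaling (40.1% and 52.2% of called genes higher). The median log2 difference of all genes was -0.04 in FPKM and 0.01 after that scaling. The sign of each of the 7 members was the same under every scaling tried.

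The order of the levels also differed between the groups. In si-SMARCA4 the order by mean FPKM, a scale per length, was IGF2 (38.3), IGFBP1 (18.1), IGFBP3 (17.4), INSR (12.4), IRS2 (8.59), IRS1 (7.46), IGF1R (4.4), IGFBP6 (0.766), IGFBP2 (0.298) and IGFBP4 (0.170). Only IGFBP1 and IGFBP3 overlapped among neighbours in that order. In si-Cont it was IGF2 (36.2), IGFBP3 (11.3), INSR (10.4), IRS1 (6.98), IRS2 (5.61), IGF1R (3.83), IGFBP1 (3.05), IGFBP2 (0.481), IGFBP6 (0.461) and IGFBP4 (0.382). There IGFBP3 and INSR overlapped, as did IRS1 with IRS2, IRS2 with IGF1R, IGF1R with IGFBP1, IGFBP2 with IGFBP6 and IGFBP6 with IGFBP4. IGFBP1 was thus second of 10 in si-SMARCA4 and seventh of 10 in si-Cont.

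Promoter windows of 300 bases (250 before to 50 after the start, RefSeq on GRCh38.p14) were held for 8 members, with 3 starts for IGFBP2. IGFBP1 and IGF2 were not searched. FOXO factors bind sequences with the core TTGTTT, and forkhead factors in general bind TGTTTAC, each searched on both strands. TTGTTT on either strand was found in the windows of IRS2 and IGF1R and in 17.9% of 35116 windows, and TGTTTAC on either strand in that of IGFBP6 and in 3.42% of windows. A TATA-type run was found in IGFBP3 (TATATA, in 3.99% of windows) and in IGFBP4 (TATAAA, in 11.5% on either strand). GGGCGG on either strand was found for all 8 members with windows and in 45.0% of windows, and is not marked below. The windows of IGFBP3 and IRS2 are shown because these genes were the members with the largest differences after IGFBP1. That of IGFBP3 (chr7:45921223-45921522, reverse strand) has TATATA in capitals, beginning 30 bases before the start. That of IRS2 (chr13:109786534-109786833, reverse strand) has TTGTTT in capitals, beginning 41 bases before the start.
IGFBP3: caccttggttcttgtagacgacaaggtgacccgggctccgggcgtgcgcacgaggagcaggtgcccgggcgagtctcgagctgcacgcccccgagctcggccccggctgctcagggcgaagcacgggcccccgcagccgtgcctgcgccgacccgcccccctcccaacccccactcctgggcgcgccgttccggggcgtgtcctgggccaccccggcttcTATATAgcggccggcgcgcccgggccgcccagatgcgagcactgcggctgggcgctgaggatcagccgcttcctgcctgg
IRS2: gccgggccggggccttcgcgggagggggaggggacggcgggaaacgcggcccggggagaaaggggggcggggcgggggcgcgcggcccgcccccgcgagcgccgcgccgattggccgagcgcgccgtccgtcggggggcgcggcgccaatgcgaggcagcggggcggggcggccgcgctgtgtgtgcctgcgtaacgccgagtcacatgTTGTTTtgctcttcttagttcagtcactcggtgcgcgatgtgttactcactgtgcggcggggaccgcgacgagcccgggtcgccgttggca
Both windows are rich in G and C, at 74.7% for IGFBP3 and 75.7% for IRS2, against a median of 58.7% over all windows. The windows of IGF1R (79.7%), IRS1 (79.3%) and INSR (78.3%) were richer still. Those of IGFBP4 (74.0%), IGFBP6 (61.7%) and IGFBP2 (55.3%, 70.0% and 56.7%) were less rich. A match in a window describes its letters and is not a binding site.

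The 3′ UTRs of the members were also searched for CTGTCCA and TGTCCAA, a pair of overlapping 7-base sequences that an earlier search of these data had singled out. The longest annotated 3′ UTR of each gene was used (GENCODE v29 on GRCh38). INSR and IGFBP6 each held a TGTCCAA, IGF1R, IRS1 and IGFBP4 held only the 6-base part TGTCCA, and IGFBP1, IGFBP2, IGFBP3, IGF2 and IRS2 held none of these. Of 10353 genes in the fit with a 3′ UTR of at least 50 bases, 23.1% held a 7-base sequence. IGFBP6 is not among them, as it was outside the fit. Their median 3′ UTR was 1647 bases, against 4801 for INSR and 250 for IGFBP6, and length was not adjusted for. The 2 carriers are shown with the sequence in capitals, for INSR at chr19:7116942-7116969 (reverse strand) and for IGFBP6 at chr12:53100828-53100855 (forward strand).
INSR: cgactctaccaTGTCCAAtggagttcag
IGFBP6: aattctgcgggTGTCCAAgacactgaga

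Around the members, 13 further genes of the IGF axis were listed, of which 6 were in the fit. Of these 1 was higher and 2 were lower, with a median log2 difference of 0.06. Over all genes in the fit 22.4% were higher and 33.6% lower, with a median of -0.04. IGFBP7, a distant relative that binds IGFs weakly, had 23.7 ± 0.973 FPKM in si-SMARCA4 and 19.9 ± 1.94 FPKM in si-Cont (log2 difference 0.24, limma adjusted p = 0.0115). H19, the imprinted noncoding RNA beside IGF2, had 1208 ± 33.2 FPKM in si-SMARCA4 and 1441 ± 48.2 FPKM in si-Cont (log2 difference -0.25, limma adjusted p = 0.0116). IGF2BP3, which binds IGF2 mRNA, had 18.4 ± 0.446 FPKM in si-SMARCA4 and 21.9 ± 1.35 FPKM in si-Cont (log2 difference -0.23, limma adjusted p = 0.00466), and its relative IGF2BP2 had 11.9 ± 0.324 FPKM in si-SMARCA4 and 10.9 ± 1.03 FPKM in si-Cont (SD, n = 3 each, limma adjusted p = 0.121, and 0.0463 with the replicate block). Over its alternatives IGF2BP2 ranged from 0.00242, without si-Cont replicate 2, to 0.375. The calls of IGFBP7 and H19 were lost without si-SMARCA4 replicate 1 (limma adjusted p = 0.0523 and 0.0514), and that of H19 also without si-SMARCA4 replicate 2 (0.0678). Both calls were lost as well with no filter on low values (limma adjusted p = 0.0559 for IGFBP7 and 0.451 for H19). Their ranges over all alternatives were 0.000393 to 0.0559 for IGFBP7 and 0.000264 to 0.451 for H19. Without si-Cont replicate 2 all 6 listed genes in the fit were called, 4 higher and 2 lower. Among listed genes outside the fit, IGF1 had 0.235 FPKM in si-SMARCA4 and 0.110 FPKM in si-Cont. IGFALS, whose product joins IGFBP3 and IGF in the ternary complex of blood, had 0.463 FPKM in si-SMARCA4 and 0.667 FPKM in si-Cont. IGFBPL1 had 0.291 FPKM in si-SMARCA4 and 1.22 FPKM in si-Cont. IGF1, IGFALS and IGFBPL1 had only 7 to 83 reads per library, so no direction is read from them.

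Of 17 listed proteases of IGF binding proteins and their inhibitors, 5 were in the fit, 2 higher and 2 lower (22.4% and 33.6% of all genes), with a median log2 difference of 0.08 and the same counts without si-Cont replicate 2. ADAM9, a membrane protease, had 61.2 ± 1.70 FPKM in si-SMARCA4 and 51.6 ± 4.71 FPKM in si-Cont (log2 difference 0.25, limma adjusted p = 0.0110). Its call was lost without si-SMARCA4 replicate 1 (limma adjusted p = 0.0509, the highest of a range from 3.82e-05). Cathepsin D (CTSD) fell to 70.2 ± 1.19 FPKM in si-SMARCA4, against 87.9 ± 4.04 FPKM in si-Cont, and STC2, an inhibitor of pappalysin, fell to 4.06 ± 0.0508 FPKM in si-SMARCA4, against 5.15 ± 0.506 FPKM in si-Cont (limma adjusted p = 0.000644 and 0.00233). PAPPA itself was under 1 FPKM (0.0232 FPKM in si-SMARCA4 and 0.0160 FPKM in si-Cont).

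Below the receptors, 39 of 43 listed signalling genes were in the fit, of which 10 were higher and 17 lower, beside 22.4% higher and 33.6% lower of all genes. The median log2 difference was -0.10. GRB2, the adapter that links receptors to RAS, fell to 10.4 ± 0.267 FPKM in si-SMARCA4, against 19.3 ± 0.569 FPKM in si-Cont (log2 difference -0.83, limma adjusted p = 2.74e-07). TRIB3, a pseudokinase that binds AKT, fell to 19.9 ± 0.709 FPKM in si-SMARCA4, against 40.5 ± 2.41 FPKM in si-Cont (log2 difference -0.99, limma adjusted p = 2.79e-07). MLST8, a subunit of the mTOR complexes, fell to 2.56 ± 0.205 FPKM in si-SMARCA4, against 5.24 ± 0.248 FPKM in si-Cont (log2 difference -0.81, limma adjusted p = 9.02e-07). PHLPP2, a phosphatase of AKT, rose to 2.78 ± 0.0555 FPKM in si-SMARCA4, against 1.48 ± 0.0529 FPKM in si-Cont (log2 difference 0.61, limma adjusted p = 2.40e-06). Without si-Cont replicate 2 the list had 11 members higher and 19 lower.

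Of 23 listed FOXO target genes other than the members, 19 were in the fit, 9 higher and 4 lower, where 22.4% of all genes in the fit were higher and 33.6% lower. The median log2 difference was 0.14, and the list had 10 higher and 4 lower without si-Cont replicate 2. Like the other lists, it was chosen with earlier results of these data known, so nothing is read from the list counts. GADD45A, a stress-induced growth arrest gene, rose to 24.1 ± 1.67 FPKM in si-SMARCA4, against 10.2 ± 1.31 FPKM in si-Cont (limma adjusted p = 9.02e-07). CITED2, a transcriptional cofactor, rose to 20.3 ± 0.358 FPKM in si-SMARCA4, against 10.2 ± 0.175 FPKM in si-Cont (limma adjusted p = 8.84e-08), and TXNIP, which limits glucose uptake, rose to 26.9 ± 1.20 FPKM in si-SMARCA4, against 14.6 ± 0.916 FPKM in si-Cont (limma adjusted p = 1.03e-06). The cell cycle inhibitor gene CDKN1A went the other way, at 4.60 ± 0.186 FPKM in si-SMARCA4 and 9.43 ± 0.646 FPKM in si-Cont (SD, n = 3 each, limma adjusted p = 4.49e-07). The classical hepatic FOXO targets of gluconeogenesis, PCK1 and G6PC, were near 0 in both groups (0.00191 and 0.0155 FPKM in si-SMARCA4, 0.00205 and 0.00614 FPKM in si-Cont) and were singled out after their values were seen.

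All 19 listed factors known to act on IGFBP1 transcription were in the fit, 5 higher and 7 lower (22.4% and 33.6% of all genes), at a median log2 difference of 0.00. The hepatocyte factor HNF4A fell to 26.0 ± 0.997 FPKM in si-SMARCA4, against 40.6 ± 0.560 FPKM in si-Cont. FOXA1 fell to 11 ± 0.303 FPKM in si-SMARCA4, against 14.5 ± 0.451 FPKM in si-Cont (limma adjusted p = 2.94e-06 for HNF4A and 8.10e-05 for FOXA1). DDIT3, a factor of the endoplasmic reticulum stress response, rose to 32.7 ± 1.09 FPKM in si-SMARCA4, against 22.9 ± 1.64 FPKM in si-Cont (limma adjusted p = 5.46e-05). Without si-Cont replicate 2 the list had 4 members higher and 8 lower.

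**Figure D4:**
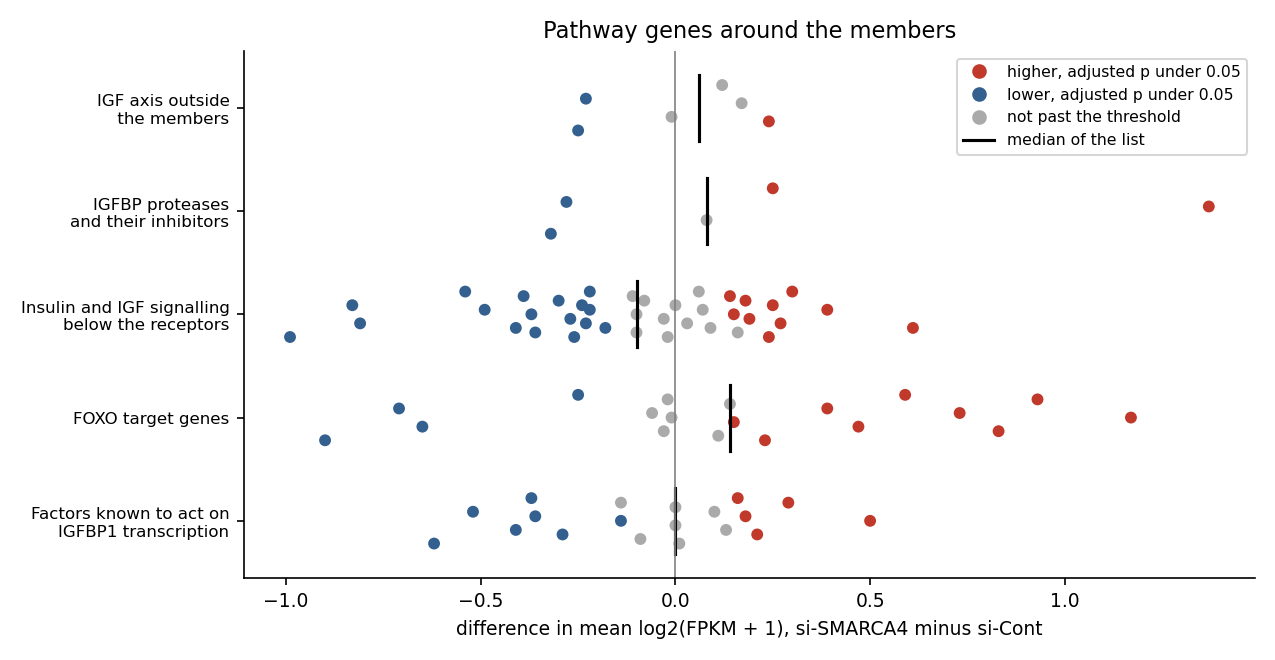
Difference in mean log2(FPKM + 1), si-SMARCA4 minus si-Cont, for the listed genes in the fit, 1 point per gene, coloured by the limma call, with a black line at the median of each list. The medians lie between -0.10 and 0.14, and called genes lie on both sides of 0 in every list.

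Position was compared last. Among the nearest 2 protein-coding genes on either side of each member (GENCODE v29 on GRCh38), 33 that are no members had a row in the table and 12 were in the fit, 3 higher and 6 lower (22.4% and 33.6% of all genes), with a median log2 difference of -0.13. Without si-Cont replicate 2 the counts were 2 higher and 7 lower. IGFBP1 and IGFBP3 are the neighbouring members, and the tested genes on either side of that pair were lower. ADCY1, 165 kb from IGFBP1, stood at 1.08 FPKM in si-SMARCA4 and 1.75 FPKM in si-Cont (limma adjusted p = 0.000143), and TNS3, 1353 kb from IGFBP3, which encodes a tensin of focal adhesions, at 28.2 FPKM in si-SMARCA4 and 36.5 FPKM in si-Cont (limma adjusted p = 0.000138). TOP2A, the topoisomerase gene beside IGFBP4, stood at 54.4 FPKM in si-SMARCA4 and 86.5 FPKM in si-Cont, and RHBDD1 beside IRS1 at 1.43 FPKM in si-SMARCA4 and 2.63 FPKM in si-Cont (limma adjusted p = 6.94e-06 and 5.82e-06). SPRYD3 beside IGFBP6 was higher, at 5.96 FPKM in si-SMARCA4 and 3.74 FPKM in si-Cont, as was ARRDC4, the second gene on its side of IGF1R at 675 kb, at 2.22 FPKM in si-SMARCA4 and 1.54 FPKM in si-Cont (limma adjusted p = 3.15e-06 and 0.000142). The nearest 2 genes on either side of IRS2 (TNFSF13B, MYO16, COL4A1 and COL4A2) were under 1 FPKM in both groups.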

How the data were processed

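RNA-seq values of 6 Hep3B libraries were compared, grouped by sample title into si-SMARCA4 (3) and si-Cont (3). The authors deposited FPKM for 57773 genes, and the submitters' processing notes name the hg19 build. No source used here names the aligner, counter or annotation. In all 25119 genes with a mean above 0, each value was a whole number of reads (relative tolerance 1e-08), and this gave the reads printed. Read numbers speak to counting error only and not to the spread between libraries. No molecular identifiers are stated, so repeated reads of a molecule may be among them.

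The 11123 genes averaging at least 1 FPKM entered limma 3.58.1 (R 4.3.3) on log2(FPKM + 1), a scale that understates the change of low genes (trend, two-sided, Benjamini-Hochberg adjustment over all genes in the fit, threshold 0.05). The p-values measure the spread between these libraries, which may be technical. The procedure was also run on simulated data with known changes in few genes and no deviating library. Those settings differ from these data, so nothing about the calls here is read from that run. The members and the 5 gene lists (115 genes) were chosen with earlier results of these data known. Named genes were SMARCA4, the members, the 4 genes of each list with the smallest p, and the 6 called neighbours with the smallest p. Libraries with the same replicate number deviated together (correlations 0.215, 0.181 and 0.162, each above those with other numbers), so the numbers may pair the libraries. The main fit and the permutation test treated the libraries as unpaired. Blocking on that number was an alternative, beside other pseudocounts (0.1 and 5), filters, scalings, leaving out each library and, chosen after seeing the data, limma voom on the recovered reads with median-ratio library sizes. The planned TMM scaling of those reads was not run. Protein features were not analysed here. Motifs TATAAA and TATATA were added after the windows were seen, and GGGCGG was not planned either. Some genes that this rule or the marker lists hold are not reported here.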

Additional observations from a re-analysis of the deposited data

How the results depend on the processing

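All alternatives but voom, chosen after seeing the data with median-ratio library sizes in place of TMM, were planned. The number of called genes was 6227, within 1.5 times of this under every setting other than a minimum mean of 5 FPKM (3683 of 6120 genes tested, fewer because fewer were tested). That filter also gave 16 called signalling genes in place of 27, and 5 called neighbouring genes in place of 9. Leaving out each library in turn gave 5174 to 7141 called genes, 1 to 6 in the IGF axis list (3 with all libraries), 23 to 30 in the signalling list and 7 to 9 neighbouring genes. The lowest count of the IGF axis list came without si-SMARCA4 replicate 1 and the highest without si-Cont replicate 2. Over all fits, the members called higher numbered 7 without si-Cont replicate 2, 5 with voom on recovered reads, which added IRS1, and 4 otherwise. Of all 11123 genes, 2494 were called higher in the main fit, 2621 without si-Cont replicate 2 and 3313 with voom. The members were chosen with this contrast known, so nothing is read from these counts. With the replicate block 6760 genes were called, and among the named genes the block changed the call of IGF2BP2 only.

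The members' log2 differences ranged over all alternatives from 1.52 to 2.62 for IGFBP1, 0.46 to 0.68 for IGFBP3, 0.36 to 0.69 for IRS2, 0.18 to 0.31 for INSR, 0.06 to 0.15 for IRS1, 0.08 to 0.36 for IGF1R and -0.05 to 0.50 for IGF2. The ends of the first 4 ranges came from a pseudocount of 5 and from voom. Depth limits IGFBP2, IGFBP4 and IGFBP6 most, with 8 to 83 reads per library.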
